A study of Homo sapiens with 6 samples.

Results

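Transcription factors of the definitive endoderm (DE) were examined in human embryonic stem cells that had been differentiated towards DE, either wild-type or heterozygous for PDHB. The 9 genes were taken by their symbols, namely SOX17, GATA6, PRDM1, GATA4, FOXA2, FOXA1, FOXA3, HHEX and HNF4A, and all 9 were found among the 49278 named genes measured. SOX17 and GATA6 were taken as early factors and the other 7 as later or foregut factors. RNA was sequenced from HUES8, an established embryonic stem cell line, after 3 days with 100 ng/ml Activin A, which all groups received. The groups were wild-type (WT) cells with 2 libraries, PDHB+/- clone #1 with 2 libraries and PDHB+/- clone #2 with 2 libraries. PDHB encodes the E1 beta subunit of the pyruvate dehydrogenase complex, and both clones were heterozygous lines made with CRISPR/Cas9, each of them a single clone. The labels do not say whether replicates were separate cultures, so p-values measure the spread between these libraries, which may be technical, and the 4 PDHB+/- libraries stand for 2 clones.

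DE is the germ layer that forms the lining of the gut and the liver, pancreas and lung, and Activin A stands in for Nodal, the signal that specifies it in the embryo. EOMES and GATA6 act early in this step, SOX17 marks the endoderm once it forms, and the forkhead factors FOXA1, FOXA2 and FOXA3 bind closed chromatin and open it for liver and pancreas genes. HHEX marks the anterior, foregut side of the endoderm, HNF4A drives liver and gut programmes, and PRDM1 is a repressor of transcription found in endoderm and in germ cell precursors.

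Levels are given as TPM, a share of the transcripts of a library that corrects for gene length. The length each gene was counted over, as recovered from the values, differed from its GENCODE exonic length for all factors but SOX17. In proportion it differed most for GATA4 (7632 against 4443 bases) and HHEX (1724 against 2522), so levels of different genes depend on the annotation. In differences between libraries a gene's own length cancels, and lengths enter only through the scaling of each library. Reads on genes numbered 11366951 to 14314974 per library. On a gene of 1000 bases 3 reads, taken here as the limit above 0, were worth 0.522 to 0.638 TPM, and this limit covers counting error only. PDHB itself averaged 365 ± 5.07 TPM in WT (SD, n = 2) and was down to 175 ± 18.7 TPM in PDHB+/- cells (SD, n = 4), where each library was below WT. The WT replicates lay closer together than those of either clone, with a chi-square per gene of 1.94 against 18.3 in clone #1 and 21.9 in clone #2. The labelled cell type was set beside 6 DE markers, all well above the limit in every library. Of these, SOX17, GATA6 and FOXA2 belong to the factors examined here and give no separate check. The others were CER1, at 8498 to 13850.1 TPM, CXCR4 and KIT. Of 16 liver genes, TTR and FGG were at 0 reads in all 6 libraries. APOA2, at 37.4 to 102 TPM, and APOA1, at 8.43 to 23.7 TPM, were above the limit.

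In PDHB+/- cells SOX17 and PRDM1 rose and FOXA3, HHEX and HNF4A fell, while the differences of GATA6, GATA4, FOXA2 and FOXA1 did not pass the test. SOX17 was at 1.67 times and PRDM1 at 1.49 times its WT level, whereas HHEX was 1.33 times, FOXA3 2.33 times and HNF4A 7.09 times lower than in WT. Thus 5 of 9 factors were called at an adjusted p under 0.05 (limma, Benjamini-Hochberg over 17291 genes), where 31.7% of all tested genes were called. By direction, 2 of 9 were higher against 22.8% of all genes, and 3 of 9 were lower against 8.86% of all genes. The libraries of WT and PDHB+/- cells did not overlap for 6 of 9 factors, and for 54.9% of all genes. The median log2 fold change of the 9 factors was -0.11 beside 0.13 for all tested genes. In bulk RNA, fewer cells that express a factor and less of its RNA per cell cannot be told apart, and this holds for every value that follows.

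**Figure D1:**
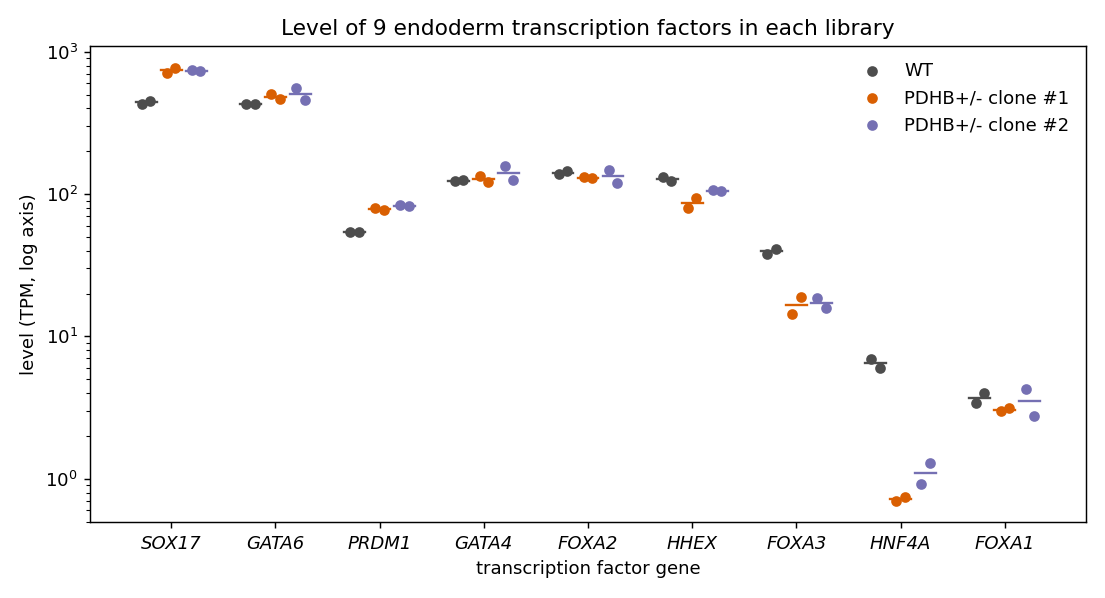
Level of each factor (TPM, log axis) in the 2 WT libraries and in the 2 libraries of each PDHB+/- clone, with a point per library and a short line at the mean of the group. SOX17, PRDM1 and GATA6 lie higher in all 4 PDHB+/- libraries than in WT, and HHEX, FOXA3 and HNF4A lie lower in all 4. Of these, GATA6 did not pass the test.

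SOX17, an SRY-related HMG box factor required for endoderm, had the highest mean level of the 9 factors in both genotypes. It was at 429 and 454 TPM in the WT libraries, at 711 and 774 TPM in clone #1, and at 739 and 732 TPM in clone #2. All 4 PDHB+/- libraries were above both WT libraries, and the clones lay close to each other. WT cells averaged 442 ± 17.3 TPM (SD, n = 2) and PDHB+/- cells 739 ± 25.98 TPM (SD, n = 4), which gave a log2 fold change of 0.74 (limma, SE 0.08, adjusted p = 0.000883). Its position in hg38 is chromosome 8, 54457935 to 54460892, plus strand (ENSG00000164736.6) and shares no exonic bases with another annotated gene. SOX17 was called higher under all 17 alternative settings, with log2 fold changes from 0.52 to 0.78.

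GATA6, a zinc finger factor that acts upstream of SOX17 in human DE, was the second most abundant factor. It was at 429.8 and 429.7 TPM in WT, at 501 and 463 TPM in clone #1, and at 553 and 461 TPM in clone #2. The PDHB+/- libraries were all above WT, but replicate 1 of each clone lay well above replicate 2, and their range of 461 to 553 TPM was wider than the difference between the means, 429.7 ± 0.0831 TPM in WT (SD, n = 2) and 494 ± 43.4 TPM in PDHB+/- cells (SD, n = 4). GATA6 did not pass (log2 fold change 0.20, 95% confidence interval -0.03 to 0.42, limma adjusted p = 0.15). With only replicate 1 of each clone, a setting chosen after seeing the data, it was 0.29 and passed (limma adjusted p = 0.0266), and it passed under no other of the 17 alternatives, where its adjusted p went up to 0.96. GATA6 lies on chromosome 18 from 22169589 to 22202528 on the plus strand (ENSG00000141448.11), where it overlaps GATA6-AS1 and another annotated gene over 10.9% of its exonic sequence. Whether reads were counted by strand is not given in the sources used here, so the origin of part of these reads is uncertain.

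GATA4, the relative of GATA6 that acts in endoderm and heart, was at 124 and 125 TPM in WT, at 134 and 122 TPM in clone #1, and at 157 and 125 TPM in clone #2. The groups overlapped, and replicate 1 was again the higher one in both clones. Its log2 fold change was 0.10 (95% confidence interval -0.15 to 0.36, limma adjusted p = 0.50) and changed sign under 4 of 17 alternatives. Without replicate 1 of clone #2, the library at 157 TPM, it was 0.03. GATA4 lies on chromosome 8 from 11676959 to 11760002 on the plus strand (ENSG00000136574.19). Within a library, GATA6 was at 3.44 and 3.46 times the level of GATA4 in WT and at 3.52 to 3.79 times in PDHB+/- cells.

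PRDM1, also known as BLIMP1, is a zinc finger repressor. It was at 54.3 and 54.0 TPM in WT, at 79.4 and 77.2 TPM in clone #1, and at 83.3 and 82.3 TPM in clone #2. These groups were far apart compared with the spread within them. The log2 fold change was 0.56 (limma, SE 0.06, adjusted p = 0.00143), and PRDM1 was called higher under all 17 alternatives, from 0.42 to 0.58. It lies on chromosome 6 from 105993463 to 106109939 on the plus strand (ENSG00000057657.17). Among the 7 later or foregut factors it was the one called higher.

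In the FOXA family FOXA3 fell, while FOXA2 and FOXA1 did not pass the test. FOXA2, the most abundant of them and a standard DE marker, was at 139 and 144 TPM in WT, at 131 and 129 TPM in clone #1, and at 147 and 119 TPM in clone #2. The groups overlapped, since replicate 1 of clone #2 was the highest of all 6 libraries and replicate 2 the lowest. FOXA2 did not pass (log2 fold change -0.11, 95% confidence interval -0.32 to 0.10, limma adjusted p = 0.39), although it was called lower with quantile normalization at -0.27 (limma adjusted p = 0.0161) and with limma voom on recovered reads at -0.23 (adjusted p = 0.0386). FOXA2 lies on chromosome 20 from 22580998 to 22585455 on the minus strand (ENSG00000125798.15).

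FOXA3, which acts mainly in liver and gut, was at 38.1 and 41.0 TPM in WT, at 14.4 and 18.9 TPM in clone #1, and at 18.8 and 15.8 TPM in clone #2. Every PDHB+/- library had less than every WT library by a wide margin. WT cells averaged 39.5 ± 2.06 TPM (SD, n = 2) and PDHB+/- cells 17.0 ± 2.24 TPM (SD, n = 4), which gave a log2 fold change of -1.18 (limma, SE 0.12, adjusted p = 0.000941), and it was called lower under all 17 alternatives. FOXA3 lies on chromosome 19 from 45863989 to 45873797 on the plus strand (ENSG00000170608.3).

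FOXA1, the third member, was at 3.40 and 4.01 TPM in WT and between 2.76 and 4.25 TPM in PDHB+/- cells. The groups overlapped, and only 50 to 76 reads per library stood behind these levels. Its log2 fold change was -0.14 with a wide interval of -0.53 to 0.24 (95% confidence, limma adjusted p = 0.53). This value moved to -0.05 without WT replicate 2, -0.25 without clone #2 replicate 1 and -0.31 with voom. FOXA1 lies on chromosome 14 from 37589552 to 37596059 on the minus strand (ENSG00000129514.8).

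Of the summed TPM of the family, FOXA3 made up 21.1% and 21.6% in the WT libraries and 9.69% to 12.5% in the PDHB+/- libraries. FOXA2 made up 76.2% and 77.0% in WT and 85.4% to 88.3% in PDHB+/- cells, while FOXA1 stayed between 1.88% and 2.50% in all 6 libraries. The shares of FOXA3 and FOXA2 thus did not overlap between the genotypes. As the shares add up to the whole and that of FOXA1 was small, the FOXA2 share had to rise where the FOXA3 share fell. It is not a separate result, and the level of FOXA2 itself overlapped between the groups. The summed level was 180.3 and 189 TPM in WT and 138 to 170 TPM in PDHB+/- cells.

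**Figure D2:**
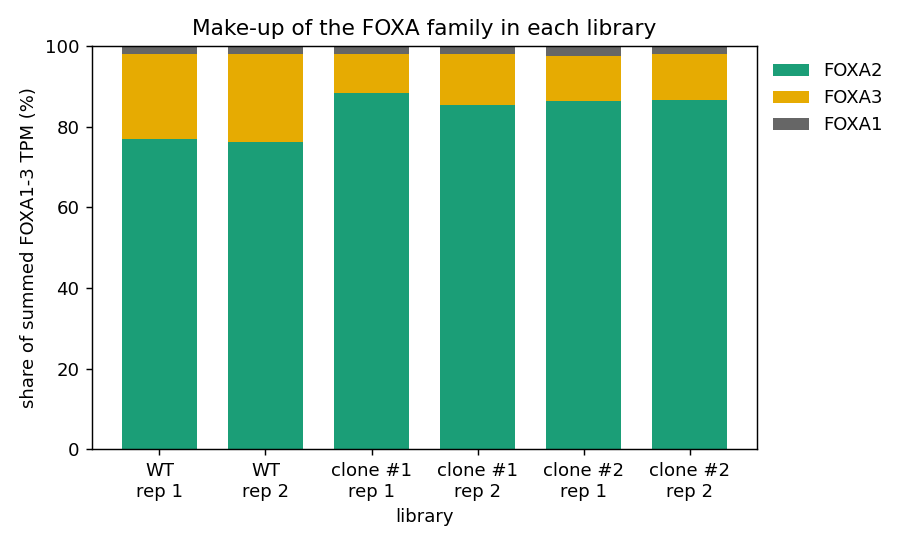
Share of each FOXA gene in the summed TPM of FOXA1, FOXA2 and FOXA3 (percent), with a stacked bar for each of the 6 libraries. The FOXA3 share is 21.1% and 21.6% in the WT bars and 9.69% to 12.5% in the 4 PDHB+/- bars.

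HHEX, a homeobox factor of the anterior endoderm, was at 131 and 124 TPM in WT, at 79.6 and 93.6 TPM in clone #1, and at 106 and 105 TPM in clone #2. All PDHB+/- libraries were below WT, and clone #1 was lower than clone #2 in both libraries. WT cells averaged 128 ± 5.29 TPM (SD, n = 2) and PDHB+/- cells 96.2 ± 12.4 TPM (SD, n = 4), which gave a log2 fold change of -0.41 (limma, SE 0.12, adjusted p = 0.0405). This was the weakest of the 5 calls. It held under 11 of 17 alternatives and was lost without WT replicate 1 (limma adjusted p = 0.21), without WT replicate 2 (adjusted p = 0.15), without clone #1 replicate 2 (adjusted p = 0.0754), without the filter on low levels (adjusted p = 0.0883), without the variance trend (adjusted p = 0.0624) and with only replicate 1 of each clone (adjusted p = 0.0581), at log2 fold changes from -0.47 to -0.37. HHEX lies on chromosome 10 from 92689955 to 92695647 on the plus strand (ENSG00000152804.11).

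HNF4A, a nuclear receptor, had the largest difference among the 9 factors. It was at 6.97 and 5.98 TPM in WT, at 0.702 and 0.739 TPM in clone #1, and at 0.923 and 1.28 TPM in clone #2. The reads behind these levels numbered 285 and 266 in WT and 29 to 60 in PDHB+/- cells, so the gene was low but above the limit in each library, and the groups were far apart. WT cells averaged 6.47 ± 0.702 TPM (SD, n = 2) and PDHB+/- cells 0.912 ± 0.266 TPM (SD, n = 4), which gave a log2 fold change of -1.97 (limma, SE 0.17, adjusted p = 0.000516). Since 1 TPM was added before the logarithm, this value understates the change, and it was -2.73 with 0.1 TPM added and -2.96 with limma voom on recovered reads. Its mean over the PDHB+/- libraries was under the 1 TPM required of the mean over all libraries, so it entered the test through its WT level. HNF4A was called lower under all 16 alternatives in which it was tested. It lies on chromosome 20 from 44355699 to 44432845 on the plus strand (ENSG00000101076.20).

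Sequence before the start sites is shown for the 3 factors that fell, because they share a direction of change. RefSeq (GRCh38.p14) gave promoters for 6 of the 9 factors, with 8 start sites in all. FOXA2, SOX17 and GATA4 were not among them. Each window of 250 bases before a start was searched on both strands for GATA motifs (AGATAA or AGATAG and TGATAA or TGATAG), forkhead motifs (TGTTTAC or TATTTAC) and a SOX core (ATTGT), letters bound by the families of GATA4 and GATA6, FOXA1 to FOXA3, and SOX17. HNF4A has 2 start sites 45540 bases apart, the downstream one inside an intron of the longer transcripts, and gene-level TPM does not separate them. Capitals mark a GATA match, and only bases outside annotated exons are printed.
HNF4A, upstream start, chr20:44355449-44355698, plus strand: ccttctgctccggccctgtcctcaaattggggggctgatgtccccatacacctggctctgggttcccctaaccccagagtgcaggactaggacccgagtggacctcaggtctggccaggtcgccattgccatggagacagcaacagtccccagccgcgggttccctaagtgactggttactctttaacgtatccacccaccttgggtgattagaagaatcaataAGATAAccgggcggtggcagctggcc
HNF4A, downstream start, chr20:44400989-44401238, plus strand: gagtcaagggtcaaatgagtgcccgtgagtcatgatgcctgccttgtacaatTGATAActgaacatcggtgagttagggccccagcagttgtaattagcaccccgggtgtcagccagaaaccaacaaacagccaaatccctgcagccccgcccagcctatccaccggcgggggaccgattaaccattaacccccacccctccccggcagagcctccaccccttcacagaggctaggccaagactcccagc
FOXA3, chr19:45864192-45864325, plus strand: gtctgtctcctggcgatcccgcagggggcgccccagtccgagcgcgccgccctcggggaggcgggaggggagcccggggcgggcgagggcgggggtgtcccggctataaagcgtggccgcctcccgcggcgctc
HHEX, chr10:92689705-92689954, plus strand: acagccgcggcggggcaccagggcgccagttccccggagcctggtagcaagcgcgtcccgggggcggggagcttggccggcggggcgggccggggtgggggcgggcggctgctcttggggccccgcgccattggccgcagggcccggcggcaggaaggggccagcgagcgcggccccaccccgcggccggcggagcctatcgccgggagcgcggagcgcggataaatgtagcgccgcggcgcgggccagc

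Both HNF4A windows held 1 GATA motif, AGATAA from 26 to 21 bases before the upstream start and TGATAA from 198 to 193 bases before the downstream start. A SOX core lay directly before the latter, on the minus strand, from 203 to 199 bases before the start. The windows of FOXA3 and HHEX held none of the 3 motifs, and neither did those of FOXA1 and GATA6. Of the 2 PRDM1 windows, 1 held a SOX core. These short motifs are common, since 22.3% of the 35116 RefSeq promoter windows of that length held a GATA motif, 5.27% a forkhead motif and 24.6% a SOX core. The matches describe the sequence and do not show binding. The base composition differed between the factors that fell, with 81.2% G and C before HHEX, 75.2% before FOXA3 and 58.4% and 58.0% before the HNF4A starts.

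The clones were next compared separately, each against the same 2 WT libraries, so the contrasts share their controls. In clone #1, 5 of 9 factors were called (limma, 3 groups, adjusted p under 0.05), beside 19.9% of all genes. In clone #2, 4 of 9 were called, beside 20.0% of all genes. These counts fell to 1 and 0 without WT replicate 1, to 1 and 1 without WT replicate 2, and that of clone #1 to 3 without its replicate 1. SOX17 changed by 0.75 and 0.73 on the log2 scale in clones #1 and #2, PRDM1 by 0.52 and 0.60, FOXA3 by -1.21 and -1.15, and HNF4A by -2.12 and -1.83. HHEX was the factor called in clone #1 (-0.56, limma adjusted p = 0.0179) and not in clone #2 (-0.27, adjusted p = 0.11). Between the clones themselves limma called 0 of 9 factors, beside 0.0174% of all genes. At an unadjusted p under 0.05, 1 of the 9 factors and 661 of all 17291 genes differed. The factor was HHEX, higher in clone #2 by 0.29 on the log2 scale.

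**Figure D3:**
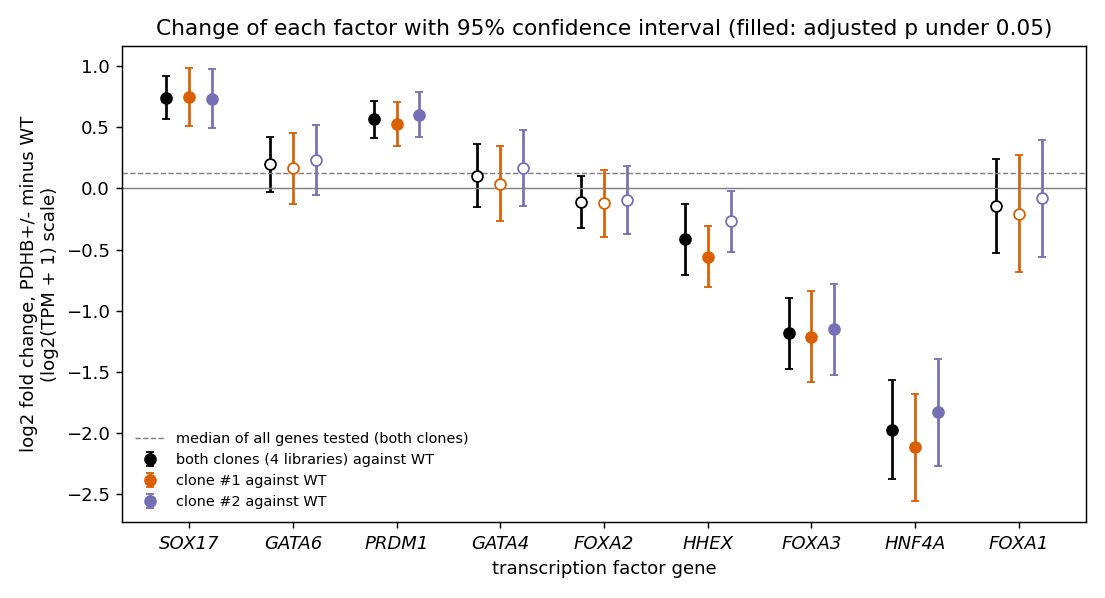
Log2 fold change of each factor against WT on the log2(TPM + 1) scale with its 95% confidence interval, for both clones together and for each clone, with filled points where the adjusted p was under 0.05. The points of the clones lie on the same side of 0 for each factor, and the dashed line marks the median of all tested genes at 0.13.

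On the deposited scale, in WT the order of the levels ran from SOX17 over GATA6, FOXA2, HHEX, GATA4, PRDM1, FOXA3 and HNF4A to FOXA1. SOX17 and GATA6 overlapped in WT, as did HHEX and GATA4, and the libraries of the other neighbours did not overlap. In PDHB+/- cells the order ran from SOX17 over GATA6, GATA4, FOXA2, HHEX, PRDM1 and FOXA3 to FOXA1 and HNF4A. With GENCODE lengths GATA4 came before FOXA2 and HHEX in WT (GATA4 at 213.9, FOXA2 at 176 and HHEX at 87.2), and PRDM1 came before HHEX in PDHB+/- cells, while the exchange of HNF4A and FOXA1 at the low end was the same. On the deposited scale SOX17 stood apart from GATA6 in PDHB+/- cells, while GATA4 and FOXA2 overlapped, as did HHEX and PRDM1. Of the summed TPM of all 9 factors, SOX17 made up 31.7% and 32.9% in WT and 40.8% to 46.0% in PDHB+/- cells.

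Early factors were then compared with later or foregut factors within each library. The ratio of SOX17 to FOXA2 was 3.09 and 3.14 in WT and 5.04 to 6.13 in PDHB+/- cells, and the ratio of SOX17 to HHEX was 3.27 and 3.66 in WT and 6.96 to 8.94 in PDHB+/- cells. SOX17 relative to FOXA3 went from 11.1 and 11.3 to between 39.4 and 49.5, and relative to HNF4A from 61.6 and 76.0 to between 569.9 and 1047. For SOX17 all 7 ratios to later or foregut factors were higher in every PDHB+/- library than in both WT libraries, the smallest shift being that to PRDM1, from 7.91 and 8.40 to between 8.86 and 10.02. The same held for 72.8% of its ratios to the other 17290 tested genes, so it is not particular to these factors. For GATA6 6 of 7 were higher and 1, that to PRDM1, was lower, from 7.92 and 7.95 to between 5.60 and 6.64, where 29.0% of its ratios to all tested genes were higher and 20.8% lower in this way. The early factors themselves did not keep their proportion, since SOX17 was at 0.999 and 1.06 times the level of GATA6 in WT and at 1.34 to 1.67 times in PDHB+/- cells. The ratios are a description and were not tested. The median log2 fold change was 0.47 for the early and -0.14 for the later or foregut factors, beside 0.13 for all genes, and PRDM1 went against this order. With 2 early factors, their median is the mean of SOX17 at 0.74 and GATA6 at 0.20, of which GATA6 did not pass. The median of the later or foregut factors was the value of FOXA1, which did not pass and had 50 to 76 reads per library. The median of the later or foregut factors rested on single libraries, being -0.24 without WT replicate 1, -0.08 without WT replicate 2, -0.25 without clone #2 replicate 1 and -0.09 without clone #2 replicate 2, and it was -0.03 with only replicate 1 of each clone and -0.25 with only replicate 2. It also moved with the scaling, to -0.31 with voom, -0.27 with quantile normalization and -0.26 with median-of-ratios scaling, while quantile normalization brought the median of the early factors to 0.26.

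**Figure D4:**
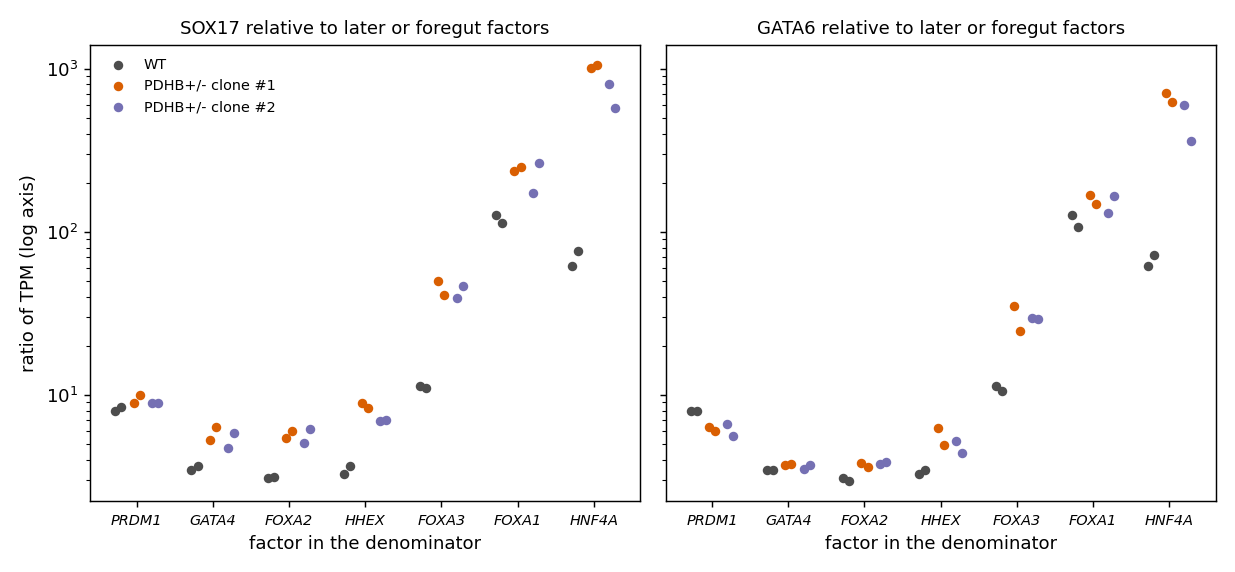
Ratio of the TPM of SOX17 (left) and GATA6 (right) to that of each later or foregut factor in each library, on a log axis, with WT in grey and the PDHB+/- clones in colour. The SOX17 ratios are higher in all PDHB+/- libraries, and the ratio of GATA6 to PRDM1 is the one that is lower.

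Because most called genes were higher in PDHB+/- cells, the scaling of the libraries was varied. Median-of-ratios scaling brought the median of all genes from 0.13 to 0.0027. Under this scaling SOX17 was at 0.60, PRDM1 at 0.42, GATA6 at 0.06, GATA4 at -0.04, FOXA2 at -0.25, FOXA1 at -0.26, HHEX at -0.55, FOXA3 at -1.32 and HNF4A at -2.07 on the log2 scale. The same 5 factors were called, and GATA4 changed sign.

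Of 13 regulators of the Nodal pathway and mesendoderm that act upstream of these factors, 2 rose and 3 fell (limma), 5 of 13 in all beside 31.7% called over all tested genes (22.8% higher and 8.86% lower), with a median log2 fold change of 0.02 beside 0.13 for all tested genes. EOMES, the T-box factor that acts upstream of SOX17 and GATA6, rose from 562 ± 1.57 to 863 ± 56.3 TPM (log2 fold change 0.62, limma adjusted p = 0.00299), and the Activin receptor ACVR2A rose by 0.38. GSC, a homeobox factor of the anterior mesendoderm, fell from 419 ± 1.01 to 291 ± 18.5 TPM (-0.52, adjusted p = 0.00415). FOXH1 and SMAD3, which carry the Nodal signal to DNA, had log2 fold changes of -0.38 and -0.23 and were called lower. NODAL was at 383 TPM in WT and 194 to 325 TPM in PDHB+/- cells and did not pass (adjusted p = 0.0652).

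Of 8 surface and secreted proteins of DE, 1 rose and 2 fell, beside 22.8% and 8.86% of all genes, with a median of -0.32 beside 0.13. FRZB, a secreted WNT antagonist, rose by 1.202 on the log2 scale, while the WNT receptors FZD5 and FZD8 were at -1.64 and -0.50. CXCR4, the surface receptor used to sort DE cells, was at 359 and 367 TPM in WT, at 259 and 153 TPM in clone #1 and at 279.6 and 143 TPM in clone #2, and its log2 fold change was -0.86, short of the threshold (limma adjusted p = 0.0562). As with GATA6 and GATA4, replicate 1 was the higher one in both clones.

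Of 17 factors of later endoderm organs 10 had a mean of at least 1 TPM, and 4 of these rose and 0 fell (limma), where 22.8% of all genes were called higher and 8.86% lower, with a median of 0.32 beside 0.13. TBX3, a T-box factor of the liver bud, rose from 15.2 ± 0.806 to 63.6 ± 5.11 TPM (log2 fold change 1.99, limma adjusted p = 7.94e-05), and the LIM homeobox factor ISL1 rose from 2.93 ± 0.639 to 12.1 ± 2.17 TPM (1.74, adjusted p = 0.000898). SOX9 was at 3 and 6 reads in WT and 19 to 52 reads in PDHB+/- cells, and CEBPA rose by 0.74. SOX9 reached the filter through its PDHB+/- level, as did TBXT and HAND1 below. PDX1, the pancreas factor, had 0 reads in all 6 libraries. ONECUT1 ran the other way, at 1.64 and 2.16 TPM in WT and 0.887 to 1.32 TPM in PDHB+/- cells, and did not pass (log2 fold change -0.47, limma adjusted p = 0.0708).

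Of 16 liver genes known as targets of FOXA factors and HNF4A, 2 reached the mean of 1 TPM and neither was called. Over all tested genes, 22.8% were called higher and 8.86% lower. APOA2 was at 97.0 and 102 TPM in WT and 37.4 to 78.3 TPM in PDHB+/- cells (log2 fold change -0.81, limma adjusted p = 0.0705), and APOA1 was at 8.43 and 11.6 TPM against 10.3 to 23.7 TPM (0.63, adjusted p = 0.13). Their median was -0.09 beside 0.13 for all tested genes. The other 14 were at 0.535 TPM or less in every library, among them ALB, AFP and APOB.

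Among 11 relatives of the 9 factors from the same families, 6 were tested, of which 5 rose and 0 fell, where 22.8% of all genes were called higher and 8.86% lower, with a median of 0.68 beside 0.13. FOXD3, GATA3, FOXC1 and SOX18 had log2 fold changes of 0.75, 0.72, 0.70 and 0.66. SOX18 shares the SOXF group with SOX17 and was at 7.66 and 9.87 TPM in WT and 13.0 to 15.2 TPM in PDHB+/- cells, while SOX7, the third gene of that group, was at 0.67 TPM or less in every library. Of 4 long noncoding RNAs beside the factors, 3 were in the table and 2 were tested. LINC00261, which lies near FOXA2, fell from 88.4 ± 4.05 to 58.3 ± 10.3 TPM (log2 fold change -0.61, limma adjusted p = 0.0199), whereas FOXA2 itself did not pass. GATA6-AS1 was at 147 and 159 TPM in WT and 93.7 to 158 TPM in PDHB+/- cells (-0.32, adjusted p = 0.25), and HNF4A-AS1 had at most 2 reads.

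**Figure D5:**
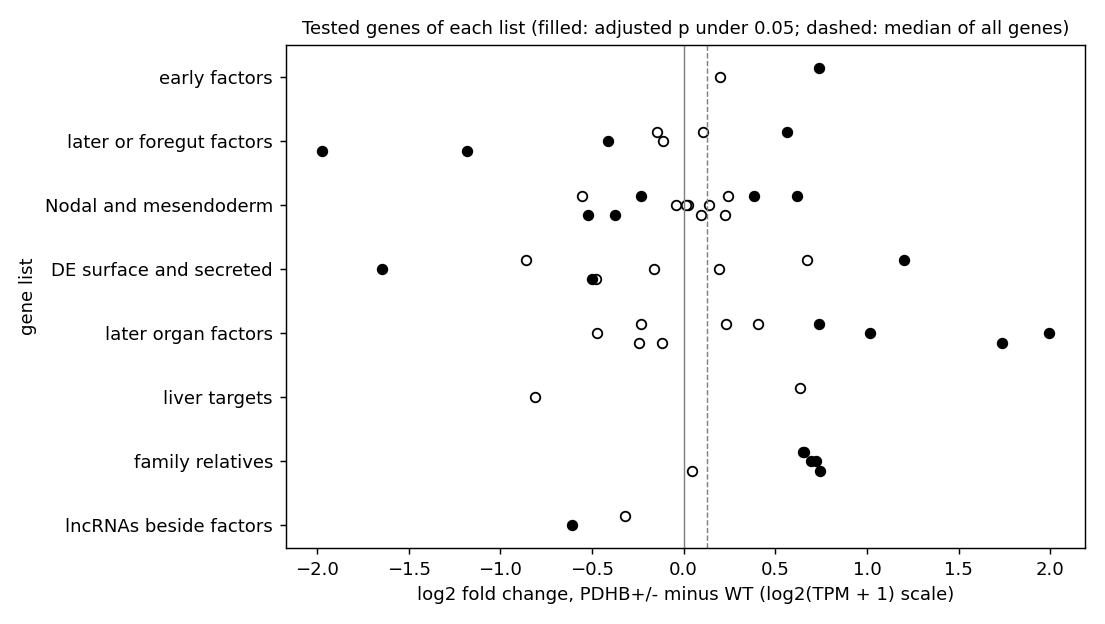
Log2 fold change of PDHB+/- against WT on the log2(TPM + 1) scale for each tested gene of the lists, with 1 point per gene, filled where the adjusted p was under 0.05, and a dashed line at the median of all tested genes (0.13). The later organ factors and the family relatives called all lie to the right of 0, while the factors of DE lie on both sides.

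Markers of other cell types that such cultures can hold are given beside these factors, and their counts are to be read against the 22.8% of all tested genes called higher and 8.86% called lower. Of 10 pluripotency markers 5 rose and 1 fell, with sums of 2443 to 2486 TPM in WT and 2561 to 3046 TPM in PDHB+/- cells. NANOG rose from 6.69 to 20.6 TPM and POU5F1 from 2.21 to 7.78 TPM, both of which have near-identical copies that make their levels uncertain, while ZFP42 fell from 16.2 to 2.301 TPM. SOX2, at 1.61 and 1.87 TPM in WT and 1.86 to 7.22 TPM in PDHB+/- cells, did not pass (limma adjusted p = 0.19). The sums of this list were set mostly by LIN28A, which was called higher, and by TDGF1 and L1TD1, which did not pass. Of 6 tested markers of primitive and visceral endoderm, tissues that also express SOX17, GATA6, GATA4 and HNF4A, 5 rose and 0 fell. CUBN, DAB2, PDGFRA and AMN had log2 fold changes of 1.65, 1.31, 1.08 and 0.91, and the sum of the 9 listed genes was 86.2 to 91.1 TPM in WT and 164 to 186 TPM in PDHB+/- cells, while of the defining markers AFP had at most 2 reads and TTR had 0. Of 7 mesoderm markers 3 were tested and called higher. PDGFRA and KDR rose, the latter from 17.7 to 45.8 TPM, at sums of 27.7 to 28.6 TPM in WT and 60.7 to 83.0 TPM in PDHB+/- cells. HAND1 had 0 and 2 reads in WT and 23 to 44 reads in PDHB+/- cells, and entered the test through the latter. TBX6 was at 1.31 and 1.91 TPM in WT and lower in all 4 PDHB+/- libraries, at 0.263 to 1.25 TPM, and its mean was under the filter.

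Of the 4 mesendoderm markers, all tested, EOMES and TBXT rose and GSC fell, beside the same shares over all genes. MIXL1 averaged 1031 TPM in WT and 1002 TPM in PDHB+/- cells and did not pass. TBXT had 8 and 9 reads in WT and 17 to 63 in PDHB+/- cells, and was called in neither clone alone (limma adjusted p = 0.0588 and 0.15). The sums, set mostly by MIXL1 and EOMES, were 1995 to 2030 TPM in WT and 2022 to 2262 TPM in PDHB+/- cells. For germ cell precursors, which express SOX17 and PRDM1 as well, PDPN rose, TFAP2C fell by 1.19 on the log2 scale and DND1 did not pass, and the defining marker NANOS3 had 2 to 8 reads, with sums of 26.4 to 26.8 TPM in WT and 26.1 to 35.8 TPM in PDHB+/- cells. Of 4 ectoderm markers 2 were tested. NES rose, while PAX6 averaged 11.4 TPM in WT and 7.31 TPM in PDHB+/- cells, with all 4 libraries below WT, and did not pass (log2 fold change -0.62, limma adjusted p = 0.0682), although it was called lower in clone #1 alone (adjusted p = 0.0445). The sums of this list, set mostly by NES, were 99.95 to 106 TPM in WT and 149.6 to 199.7 TPM in PDHB+/- cells. Of 6 markers of trophoblast and amnion, GATA3 and ISL1 rose, TFAP2C fell and KRT7 had at most 2 reads, with sums of 25.1 to 27.1 TPM and 30.6 to 39.5 TPM. Of the 6 DE markers, 1, SOX17, rose and 0 fell (limma), shares near those over all genes, with sums of 15107 to 15318 TPM in WT and 10088 to 14002 TPM in PDHB+/- cells, set mostly by CER1. The part of these cell types in the differences of the 9 factors was not tested.

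Over the 6 libraries, the genes with profiles closest to that of SOX17 were GAS2L1, IER3 and CA2, among 9371 genes averaging 10 TPM or more. Their distances in centred log2(TPM + 1) were 0.11, 0.11 and 0.12. The carbonic anhydrase gene CA2 went from 52.3 ± 2.04 to 90.8 ± 2.87 TPM. The closest to GATA6 were NKIRAS2, MAPKAPK2 and RNF6 at distances of 0.042, 0.043 and 0.045, and NKIRAS2 went from 74.4 ± 0.487 to 86.7 ± 7.91 TPM. The likeness is a description over 6 libraries of 3 groups.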

How the data were processed

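RNA-seq of 6 libraries was measured. The authors used Bowtie2 for alignment to hg38, with 1 location per read, and counted reads on genes with featureCounts. The deposited values are the resulting counts normalized to TPM, a length-scaled share of each library, for 49278 named genes. The annotation and strand setting are not given in the sources used here. A line without a name that repeats the total was dropped, and 0 columns were unused.

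Genes averaging 1 TPM or more over the 6 libraries, 17291 in number, were analysed on the log2(TPM + 1) scale. The authors name DESeq2 as their test, which needs counts and was not used. In its place limma 3.58.1 (lmFit, eBayes with a trend) in R 4.3.3 was run, with Benjamini-Hochberg adjustment over all tested genes and a threshold of 0.05. PDHB+/- was compared with WT in 2 groups and the clones in 3 groups, tested on simulated data beforehand. Reads were recovered from TPM, as TPM in a library are whole reads over the gene's length times a constant. Of 34899 genes above 0, 34895 gave whole reads within 0.0002 reads, but lengths were searched for as well. They served for depth and for limma voom.

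The members and gene lists were chosen with earlier results of these data known. The text names all 9 factors, up to 4 called genes of each list with the largest change, defining markers, and the 3 genes nearest to SOX17 and GATA6. NODAL, SOX18 and APOA1 were among the genes named after their values were seen. The alternatives were another pseudocount, other filters and scalings, no trend, the replicate block, 3 groups, each library left out, and voom. Fits with replicate 1 or 2 of each clone were added after seeing the data. Positions come from the GENCODE annotation of hg38, whose exonic lengths differ from the counting lengths for several factors. Tables came from pandas 2.3.3 and numpy 2.4.6 and plots from matplotlib 3.10.9, under Python 3.11.15.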

Additional observations from a re-analysis of the deposited data

How the results depend on the processing

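SOX17, PRDM1, FOXA3 and HNF4A kept their direction and their call under every alternative in which they were tested. HHEX, FOXA2 and GATA6 kept their direction, but whether they were called depended on the setting, as given above. Beside the 5475 genes called, leaving out a library gave 1657 to 5187, the lowest without WT replicate 2 and 1770 without WT replicate 1, since a single WT library then stands for its group and is assumed to vary like the others. The count of factors called in clone #1 went from 1 to 5 and in clone #2 from 0 to 4 over these fits. The median of the early factors was 0.33 with median-of-ratios scaling, 0.26 with quantile normalization and 0.35 with voom, and that of the later or foregut factors was -0.31 with voom, beside the values given above. GATA4 changed sign to -0.037 with median-of-ratios scaling, -0.069 with quantile normalization, -0.013 with voom and -0.0126 with replicate 2 of each clone. The cause was not tested. Deviations of same-numbered libraries correlated at 0.35 between the clones, but at -0.01 between WT and each clone, so the numbers were not taken to pair WT with PDHB+/- libraries. With the replicate block, 6266 genes and 5 factors were called. A filter of 5 TPM left HNF4A and FOXA1 untested, and FOXA1 and HNF4A are the factors that depth limits, with as few as 50 and 29 reads.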
